A study of Mus musculus with 13 samples.

Results

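The 10 genes described here encode inhibitors of Wnt signalling, several of which are themselves switched on by the pathway and so form its negative feedback: Nkd1, Nkd2, Axin2, Notum, Wif1, Dkk2, Dkk3, Rnf43, Znrf3 and Apcdd1. They were chosen by name, with earlier results of these data known, so counts over them are a description and not those of a blind list. Each was read on the probe set whose only gene symbol was that of the gene, and each of the 10 had exactly 1 such probe set, so that 10 of the 19938 genes with a probe set of their own are described. RNA was hybridised to Mouse Gene 1.0 ST arrays from Affymetrix, with an array for every sample, in 3 groups: intestinal adenomas (n = 3), normal epithelium with high FP expression (FP-high, n = 4) and normal epithelium with low FP expression (FP-low, n = 6). All 13 samples came from the small intestine of Apc mutant mice crossed with mice transgenic for FPs, so the normal samples carry the Apc mutation too, and their source lay next to adenomas. What FP stands for, the Apc allele, the promoter of the transgene and the age of the animals are not stated in the labels, nor is it stated which samples share an animal, so that p-values cover the variation among these samples, some of it possibly technical. Crypts were picked with glass capillaries and their RNA was amplified before labelling. Precision is limited by how few arrays each group has.

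In Wnt signalling, secreted Wnt proteins bind Frizzled receptors together with Lrp5 or Lrp6. Without a ligand, a destruction complex built on Apc and Axin proteins marks beta-catenin for breakdown. With a ligand, or when Apc is lost, beta-catenin accumulates, enters the nucleus and acts with TCF/LEF factors on target genes, among them Axin2, Nkd1, Notum, Rnf43 and Znrf3. In the crypt this pathway maintains stem cells, and loss of Apc starts adenomas. The inhibitors act at 3 places. Inside the cell, Nkd1 and Nkd2 bind Dishevelled, and Axin2 is a scaffold of the destruction complex. Outside it, Notum removes the lipid that Wnt proteins need, Wif1 binds Wnt proteins and Dkk2 binds Lrp5 and Lrp6, while Dkk3 is a divergent Dickkopf family member whose part in Wnt signalling is less settled. At the membrane, Rnf43 and Znrf3 are ubiquitin ligases that clear Frizzled from the surface, and Apcdd1 is a glycoprotein that holds back Wnt signalling.

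The 10 genes are spread over 7 chromosomes, and 4 of them (Axin2, Notum, Rnf43 and Znrf3) are on mouse chromosome 11, which holds 7.87% of the 19856 measured genes with a known chromosome. RefSeq promoter windows of GRCm38.p6, from 250 bases before to 50 bases after an annotated start, were read for 6 of the 10 genes, with 7 windows in all. Those of Nkd1, the gene that rose in adenomas, and of Axin2, a classical beta-catenin target that did not pass the test, are shown because both are known pathway targets and only the first was called. Both are on the plus strand and read 5′ to 3′. Capitals would mark a TCF/LEF site, searched on both strands as CTTTGNN with each N an A or a T, and neither window holds one.
Nkd1, chr8:88527383-88527682: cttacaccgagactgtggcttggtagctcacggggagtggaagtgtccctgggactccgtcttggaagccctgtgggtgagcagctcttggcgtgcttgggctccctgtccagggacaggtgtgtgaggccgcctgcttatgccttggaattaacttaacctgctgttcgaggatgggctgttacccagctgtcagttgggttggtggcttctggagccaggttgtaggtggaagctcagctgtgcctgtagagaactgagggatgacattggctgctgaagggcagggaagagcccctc
Axin2, chr11:108920099-108920398: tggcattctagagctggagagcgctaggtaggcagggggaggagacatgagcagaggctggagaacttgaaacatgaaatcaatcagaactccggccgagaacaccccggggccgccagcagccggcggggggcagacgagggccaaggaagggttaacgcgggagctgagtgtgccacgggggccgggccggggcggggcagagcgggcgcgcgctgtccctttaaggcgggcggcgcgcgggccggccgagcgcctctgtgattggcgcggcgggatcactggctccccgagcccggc
The Nkd1 window was 58.3% G or C with 6 CpG dinucleotides, and the Axin2 window was 70.0% G or C with 31. The 7-base forms occurred in 0 of the 7 member windows and in 16.9% of all 32851 windows of this length. Their shared 5-base core CTTTG occurred in 2 member windows, those of Wif1 and Dkk2, and in 53.9% of all windows. These matches describe letters in 1 short window per start, and enhancers and introns were not searched. No window was read for Notum, Dkk3, Znrf3 or Apcdd1, so the member counts say nothing about these genes.

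One normal array stood apart before any gene was considered. FP-high replicate 1 had an SD of log2 values of 1.21 over the 23410 probe sets with a gene symbol, against 1.89 to 2.10 in the other 12 arrays, and a median correlation of 0.762 with the others, which correlated with each other at 0.921 to 0.985. Array medians lay between 4.55 and 4.65. The epithelial list (Epcam, Cdh1, keratins and others; 12 measured) averaged 7.79 to 8.43 in adenomas, 6.22 to 8.63 in FP-high and 7.76 to 8.53 in FP-low samples, FP-high replicate 1 being the lowest array. Xist, an RNA made in female cells, was at 8.88 to 9.71 in the 3 adenomas, at 8.64 in FP-high replicate 4 and at 8.74 in FP-low replicate 6, and no higher than 3.61 in the other 8 normal arrays. The Y-linked gene Eif2s3y had the opposite pattern, at 4.43 to 6.87 in those 8 arrays and no higher than 2.25 in the 5 with high Xist. Adenoma replicates 1 to 3 thus had the female pattern, and FP-high and FP-low replicates 1 to 3 the male one. Same-numbered adenoma and normal arrays therefore did not come from the same animal. The part of sex in the results was not tested.

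The first question was which of the inhibitors differ between adenomas and the normal epithelium beside them. Nkd1 alone passed the test, with a level in adenomas that was 4.23 times that of normal epithelium (95% interval 2.39 to 7.47). The other 9 genes did not pass, among them the feedback genes Axin2, Notum and Znrf3, with log2 differences of -0.033, 0.031 and 0.10. The normal level of Znrf3, 3.93, lay below the array medians of 4.55 to 4.65, as did those of Nkd2, Wif1, Dkk3 and Rnf43. Whether such levels lie above background is unknown, so a small difference there does not show an unchanged gene. Rnf43 and Wif1 had higher means in adenomas and an unadjusted p under 0.05, as had 10.6% of all probe sets, but missed the threshold after adjustment. Here and below, the normal level weights both normal groups' means equally, differences are given on the log2 scale with limma's standard error, and a gene passed when its Benjamini-Hochberg adjusted p over all 23410 probe sets was under 0.05. By that rule 1 of 10 genes passed, and the background share of all probe sets was 0.91% (213 probe sets, 207 higher and 6 lower). The median difference of the 10 genes was 0.13, against -0.091 over all tested probe sets.

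**Figure D1:**
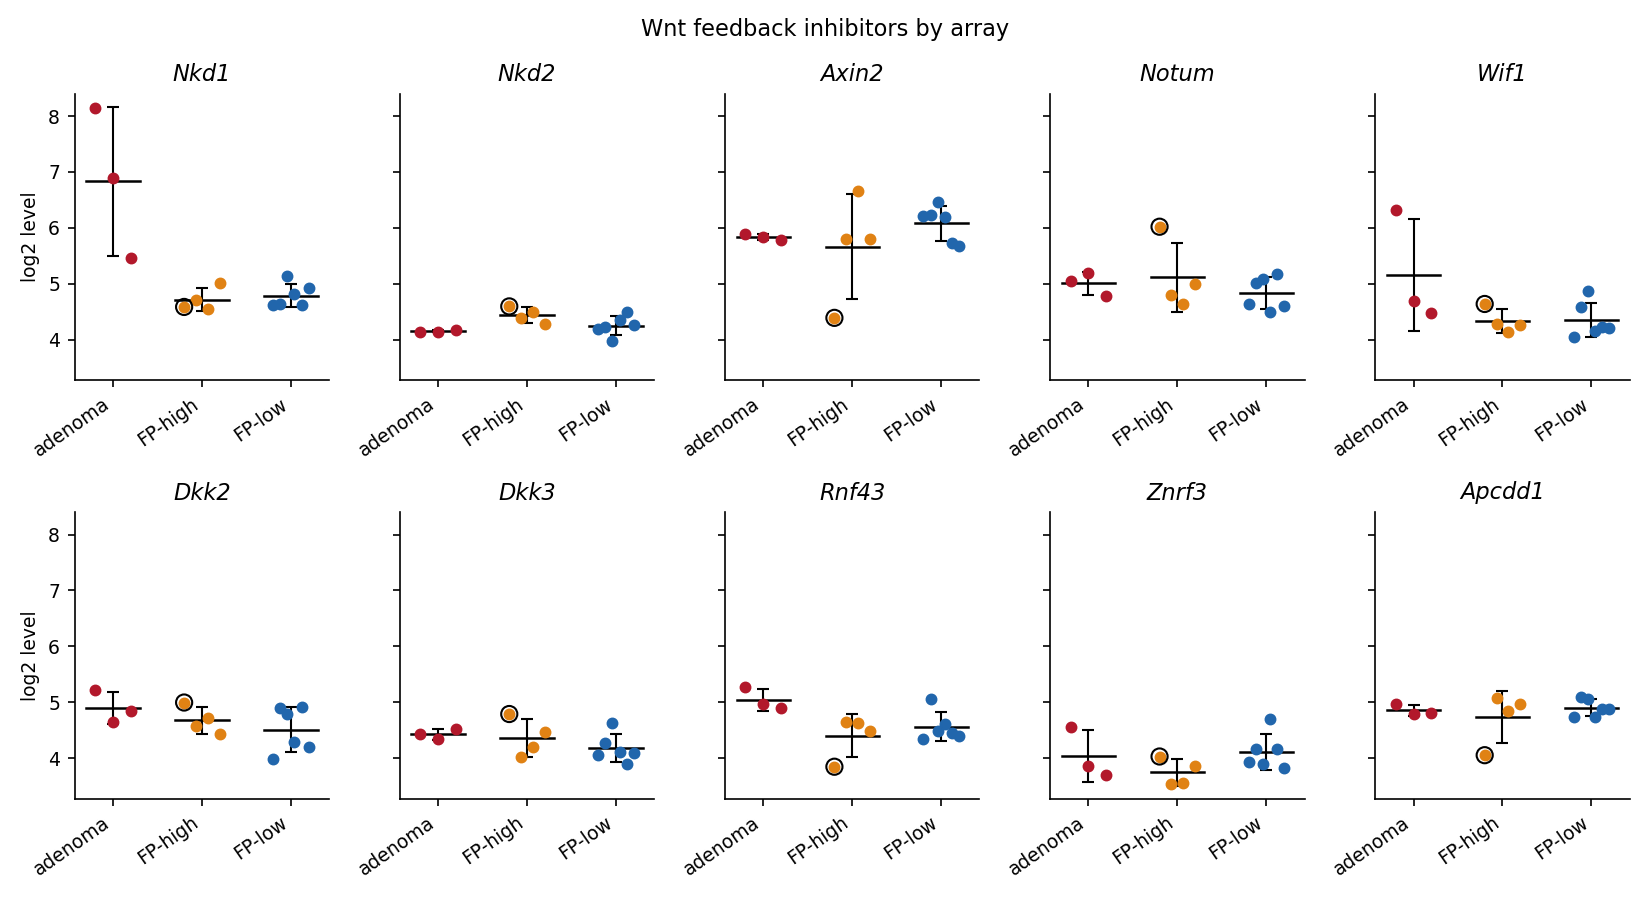
Log2 level of each of the 10 genes (y axis, shared by all panels) on every array, by group (x axis: adenoma, FP-high and FP-low). Points are arrays, horizontal bars are means and whiskers are SDs (n = 3, 4 and 6), and the ringed point is FP-high replicate 1. The 3 adenomas lie above all 10 normal arrays for Nkd1 and for none of the other genes.

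**Figure D2:**
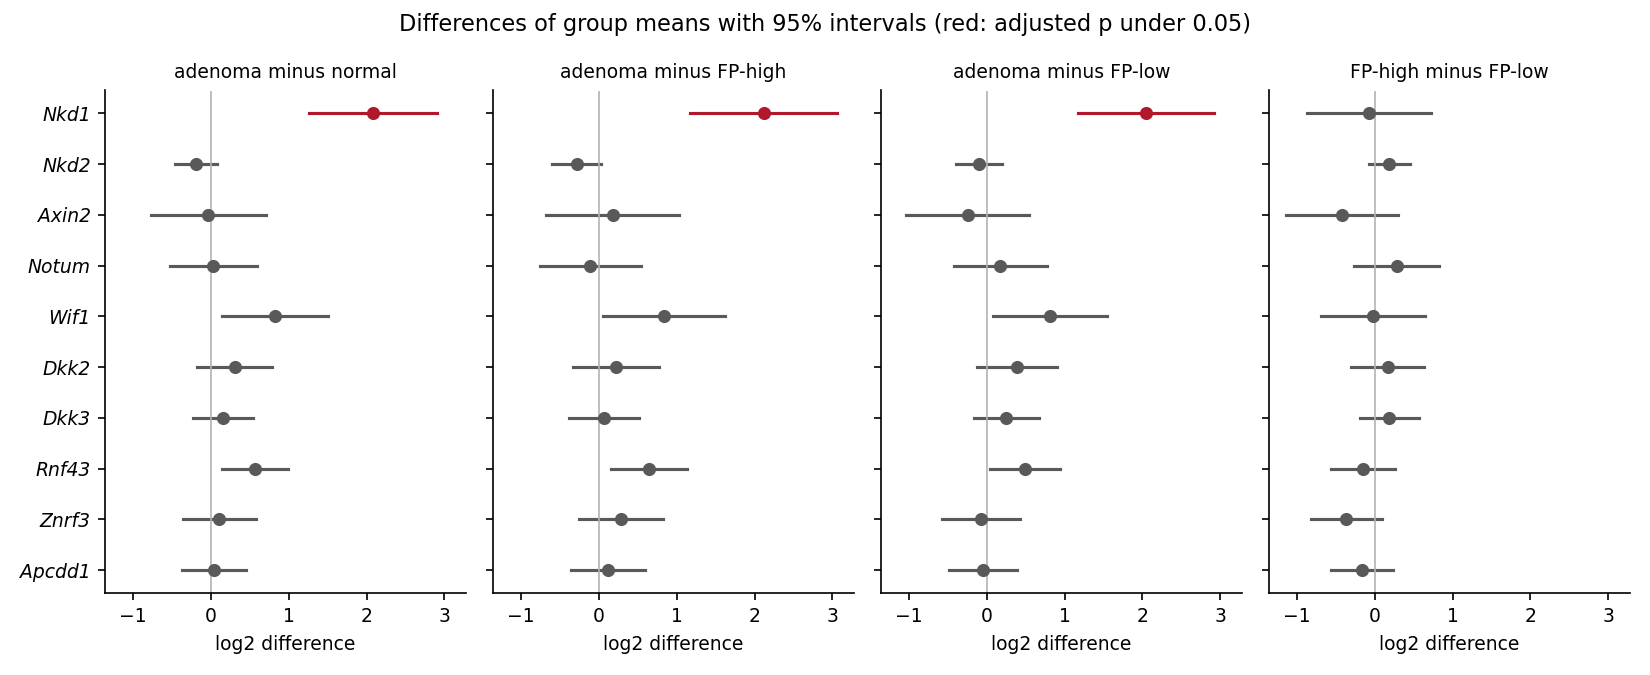
Difference of group means on the log2 scale (x axis) for each gene (rows) in the 4 comparisons (panels), with 95% intervals from limma. Red marks an adjusted p under 0.05, which only Nkd1 reached, in the 3 comparisons that involve adenomas.

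Among the intracellular inhibitors, Nkd1 stood at log2 levels of 8.14, 6.89 and 5.47 in adenomas, against 4.58, 4.71, 4.55 and 5.02 in FP-high samples and 4.61 to 5.13 (median 4.73) in FP-low samples. All 3 adenomas lay above all 10 normal arrays, but they differed widely among themselves, and the lowest of them exceeded the highest normal array by only 0.34. Relative to the normal mean the 3 adenomas were at 10.5, 4.40 and 1.64 times that level. Group means were 6.83 ± 1.34 in adenomas (SD, n = 3), 4.71 ± 0.21 in FP-high (n = 4) and 4.79 ± 0.21 in FP-low samples (n = 6), and the difference from normal was 2.08 ± 0.38 (SE, limma adjusted p = 0.0219). The SE, interval and adjusted p use 1 spread shared by all groups, although the SD was far larger in adenomas. They may therefore understate the uncertainty of the adenoma mean. Groups without overlap are not rare in these data: 3.97% of all tested probe sets had adenomas all above or all below the normal arrays.

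The Nkd1 call depended on adenoma replicates 1 and 2. Without adenoma replicate 1 the difference was 1.43 ± 0.29 (limma adjusted p = 0.0767), and without adenoma replicate 2 it was 2.05 ± 0.47 (adjusted p = 0.132). Without adenoma replicate 3, the adenoma nearest to normal, it was 2.76 ± 0.27 (adjusted p = 0.000357). Leaving out any 1 normal array kept it between 2.05 and 2.13, with adjusted p from 0.0206 to 0.0429. With the replicate number as a block it was 2.13 ± 0.46 and did not pass (adjusted p = 0.169).

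**Figure D3:**
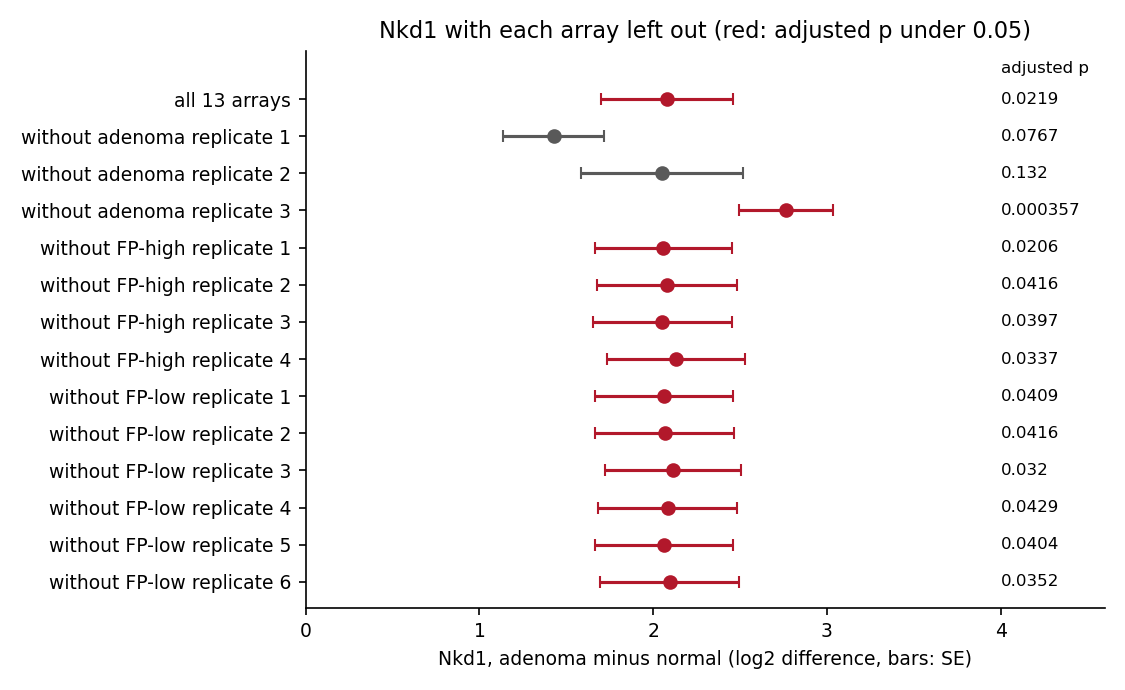
Nkd1, difference between adenomas and normal epithelium (x axis, log2 scale) with all 13 arrays and with each array left out in turn (rows). Bars are standard errors, the column on the right gives limma's adjusted p, and red marks a value under 0.05. The difference is above 1.4 in every row, and the adjusted p is above 0.05 without adenoma replicate 1 (0.0767) and without adenoma replicate 2 (0.132).

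Nkd2, the close relative of Nkd1, was at 4.14, 4.14 and 4.17 in adenomas, against 4.59, 4.39, 4.49 and 4.27 in FP-high and 3.98 to 4.49 (median 4.25) in FP-low samples. Its adenoma levels lay below all 4 FP-high arrays and inside the FP-low range. The difference from normal was -0.19 ± 0.13 (SE, limma adjusted p = 0.584), with a 95% interval of -0.47 to 0.078, which does not reach the size seen for Nkd1. Axin2 was at 5.90, 5.84 and 5.77 in adenomas, against 4.39, 5.79, 6.66 and 5.79 in FP-high and 5.67 to 6.46 (median 6.20) in FP-low samples. The 3 adenomas were close together and inside the range of both normal groups. The difference was -0.033 ± 0.34 (limma adjusted p = 0.968), and its 95% interval of -0.77 to 0.71 leaves room for a change of moderate size in either direction.

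Among the secreted inhibitors, Notum was at 5.05, 5.19 and 4.77 in adenomas, against 4.63 to 6.02 in FP-high and 4.49 to 5.17 (median 4.83) in FP-low samples. The highest array was thus a normal one, FP-high replicate 1, and the groups overlapped. The difference was 0.031 ± 0.26 (limma adjusted p = 0.961; 95% interval -0.53 to 0.59), and it was -0.19 after quantile normalization. Wif1 was at 6.31, 4.69 and 4.48 in adenomas, against 4.64, 4.28, 4.14 and 4.26 in FP-high and 4.05 to 4.86 (median 4.22) in FP-low samples. Adenoma replicate 1 was high and the other 2 adenomas lay within the range of the normal arrays. The difference of 0.82 ± 0.31 did not pass (limma adjusted p = 0.366) and was 0.25 ± 0.22 without adenoma replicate 1. Dkk2 ranged from 4.64 to 5.21 in adenomas, 4.43 to 4.99 in FP-high and 3.98 to 4.92 in FP-low samples, with a difference of 0.30 ± 0.22. Dkk3 ranged from 4.33 to 4.53 in adenomas, 4.02 to 4.79 in FP-high and 3.89 to 4.64 in FP-low samples, with a difference of 0.16 ± 0.18. Neither Dickkopf gene passed (limma adjusted p = 0.612 for Dkk2 and 0.71 for Dkk3), and both overlapped between groups.

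At the membrane, Rnf43 was at 5.26, 4.97 and 4.90 in adenomas, against 3.85, 4.65, 4.63 and 4.49 in FP-high and 4.34 to 5.06 (median 4.47) in FP-low samples. All 3 adenomas lay above the 4 FP-high arrays and above 5 of the 6 FP-low arrays. The difference was 0.56 ± 0.19, or 1.48-fold, and did not pass (limma adjusted p = 0.298; 95% interval 0.14 to 0.98). Without FP-high replicate 1, the array with the lowest Rnf43, it was 0.47 ± 0.15 (limma adjusted p = 0.145). Its partner Znrf3 was at 4.56, 3.85 and 3.69 in adenomas, against 4.03, 3.54, 3.56 and 3.86 in FP-high and 3.82 to 4.70 (median 4.05) in FP-low samples. The highest Znrf3 level was in an FP-low array, and the difference was 0.10 ± 0.22 (limma adjusted p = 0.833). Apcdd1 ranged from 4.79 to 4.96 in adenomas, 4.05 to 5.08 in FP-high and 4.73 to 5.10 in FP-low samples, with a difference of 0.036 ± 0.19 (limma adjusted p = 0.936). The adenomas lay inside the range of both normal groups.

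Adenoma replicate 1 had the highest level of the 3 adenomas for 7 of the 10 genes, where 38.1% of all tested probe sets were highest in that array. The exceptions were Notum, highest in adenoma replicate 2 (32.1% of probe sets), and Nkd2 and Dkk3, highest in adenoma replicate 3 (29.8%). For Nkd1, Wif1 and Znrf3 the gap to the next adenoma was large, at 8.14 against 6.89, 6.31 against 4.69 and 4.56 against 3.85.

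The comparisons with each normal group used the same 3 adenomas and are given side by side. Nkd1 differed by 2.12 ± 0.44 from FP-high samples (SE, limma adjusted p = 0.0463) and by 2.04 ± 0.41 from FP-low samples (adjusted p = 0.0446). In each comparison 1 of the 10 genes passed, against a background of 0.765% of probe sets for FP-high and 0.551% for FP-low, and 3 of the 10 had an unadjusted p under 0.05, against 15.7% and 7.45% of probe sets. Both calls were close to the threshold. The call against FP-high ended when any array but adenoma replicate 3 was left out (limma adjusted p up to 0.17), and the call against FP-low when any array but adenoma replicate 3 or FP-high replicate 1 was left out (up to 0.223). With the replicate number as a block, Nkd1 differed by 2.17 ± 0.52 from FP-high (limma adjusted p = 0.209) and by 2.09 ± 0.52 from FP-low samples (0.327). Deviations from the group means had positive r for same-numbered adenoma and FP-high arrays, but not for all same-numbered adenoma and FP-low arrays. Without values for differently numbered arrays, this does not show a pairing. Rnf43 differed by 0.64 ± 0.22 from FP-high samples (limma adjusted p = 0.24) and by 0.49 ± 0.21 from FP-low samples (adjusted p = 0.618). Wif1 differed by 0.83 ± 0.36 from FP-high (limma adjusted p = 0.302) and by 0.81 ± 0.34 from FP-low samples (adjusted p = 0.585). Adenomas and FP-high arrays did not overlap for Nkd1 and Rnf43, both higher in adenomas, and for Nkd2, lower in adenomas, while 17.1% of all probe sets separated these 2 groups (6.74% higher and 10.4% lower in adenomas). Adenomas and FP-low arrays did not overlap for Nkd1 alone, where 9.31% of all probe sets separated the groups.

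The second question, from the title of the series, was whether FP-high and FP-low normal epithelium already differ. The source of both lay next to adenomas, so the comparison does not show intestine before any tumour. For these inhibitors the test called 0 of 10 genes, and 0 of the 10 had an unadjusted p under 0.05. The background was likewise 0% of probe sets called by limma (smallest adjusted p = 0.0684), although 12.7% had an unadjusted p under 0.05. Nkd1, the gene that rose in adenomas, differed by -0.074 ± 0.37 between FP-high and FP-low samples (limma adjusted p = 0.922), with a 95% interval of -0.87 to 0.73. Znrf3 had the smallest p, at -0.37 ± 0.21 (limma adjusted p = 0.416), and no gene had groups without overlap, against 2.25% of all probe sets. The median difference was -0.048, against 0.053 over all probe sets.

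FP-high replicate 1 set several of the means in this comparison. It was the lowest of the 10 normal arrays for Axin2, Rnf43 and Apcdd1 and the highest for Nkd2, Notum, Dkk2 and Dkk3. Axin2 averaged 5.66 ± 0.94 in FP-high (SD, n = 4) and 6.08 ± 0.32 in FP-low samples (n = 6), a difference of -0.42 ± 0.33 (SE). Without FP-high replicate 1 the FP-high mean was 6.08 ± 0.50 (SD, n = 3) and the difference -0.0020 ± 0.22 (SE). Notum differed by 0.28 ± 0.25 with that array and by -0.023 ± 0.18 without it. Rnf43 differed by -0.15 ± 0.19 with it and by 0.031 ± 0.16 without it, and Apcdd1 by -0.17 ± 0.18 with it and by 0.060 ± 0.11 without it. Znrf3 kept its direction, at -0.46 ± 0.22 without that array (limma adjusted p = 0.597).

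The rest of the pathway was read from 6 lists holding 111 other gene symbols, of which 108 matched a measured gene. Between adenomas and normal epithelium 3 of them passed, all higher in adenomas and all from the list of other Wnt target genes (3 of 21, median difference 0.27). They were Prox1, a transcription factor, at 3.11 ± 0.44 (SE, limma adjusted p = 0.004), Cd44, a hyaluronan receptor, at 1.94 ± 0.35 (adjusted p = 0.0187), and Lgr5, the R-spondin receptor of crypt stem cells, at 1.62 ± 0.33 (adjusted p = 0.0417). Prox1 was at 8.14, 6.37 and 5.48 in adenomas and Lgr5 at 8.42, 7.02 and 7.10, both highest in adenoma replicate 1 like Nkd1, whereas Cd44 was at 7.56, 7.33 and 7.80. In the 10 normal arrays Prox1 spanned 3.02 to 4.64, Lgr5 4.91 to 6.92 and Cd44 4.43 to 6.98, below every adenoma for each gene. Against FP-high samples all 3 passed too, but against FP-low samples only Prox1 did (3.18 ± 0.47, limma adjusted p = 0.0065), with Cd44 at 1.40 ± 0.37 (adjusted p = 0.174) and Lgr5 at 1.24 ± 0.36 (adjusted p = 0.24).

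In the other 5 lists 0 genes passed in any of the 4 comparisons. Of 15 genes on the list of other secreted inhibitors 14 had a lower mean in adenomas than in normal samples (median -0.14). The list also holds the membrane proteins Kremen1, Kremen2 and Trabd2b and the BMP antagonist Grem1. Its smallest p belonged to Dkk4 at -0.44 ± 0.19 and the bone-expressed inhibitor Sost at -0.34 ± 0.16. Of 21 genes for Wnt ligands and their export 19 had a lower mean (median -0.22), the smallest p belonging to Wnt7a at -0.59 ± 0.26 and Wnt3 at -0.31 ± 0.14. Since 38.1% of all tested probe sets had a higher mean in adenomas and the rest a lower one, a surplus of lower means is also the background here. Among 21 receptors and R-spondins (median -0.10) the smallest p belonged to Ror1, a receptor for noncanonical Wnt signals, at -0.49 ± 0.14, and to Lgr6 at -0.37 ± 0.12. Among 17 genes of the destruction complex and Dishevelled (median 0.15) it belonged to the tankyrases Tnks2 at 1.01 ± 0.40 and Tnks at 0.73 ± 0.37, enzymes that mark Axin proteins for breakdown. Among 14 nuclear factors (median -0.068) it belonged to Pygo1, a beta-catenin cofactor, at -0.52 ± 0.17 and Tcf7l1 at -0.28 ± 0.15.

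Between FP-high and FP-low samples 0 of the 108 genes passed, but lists leaned in both directions. All 17 genes of the destruction complex and Dishevelled averaged less in FP-high than in FP-low samples (median -0.29), as did 16 of the 21 other targets (median -0.40, 7 with an unadjusted p under 0.05), against a median of 0.053 over all probe sets. The other way, 16 of the 21 ligand and export genes averaged more in FP-high samples (median 0.14). So did 12 of the 15 genes on the list of other secreted inhibitors (median 0.11), where 56.3% of all probe sets had a higher mean. FP-high replicate 1 was the lowest array for the destruction complex list and for the other targets. The destruction complex list averaged 4.78 in that array and 5.75 to 5.95 in the other 3 FP-high arrays, against 5.82 to 6.09 in FP-low arrays. The other targets averaged 4.87 in that array and 5.61 to 5.79 in the other 3, against 5.77 to 6.04 in FP-low arrays. Such a lean was not particular to Wnt genes. All 9 markers of cycling cells (median -1.23), 9 of stem cells (-0.48) and 8 of Paneth cells (-1.07) averaged less in FP-high samples. All 10 enterocyte markers averaged more (0.91). The stem cell list shares genes with the other targets, among them Lgr5, and the part of cell types was not tested.

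**Figure D4:**
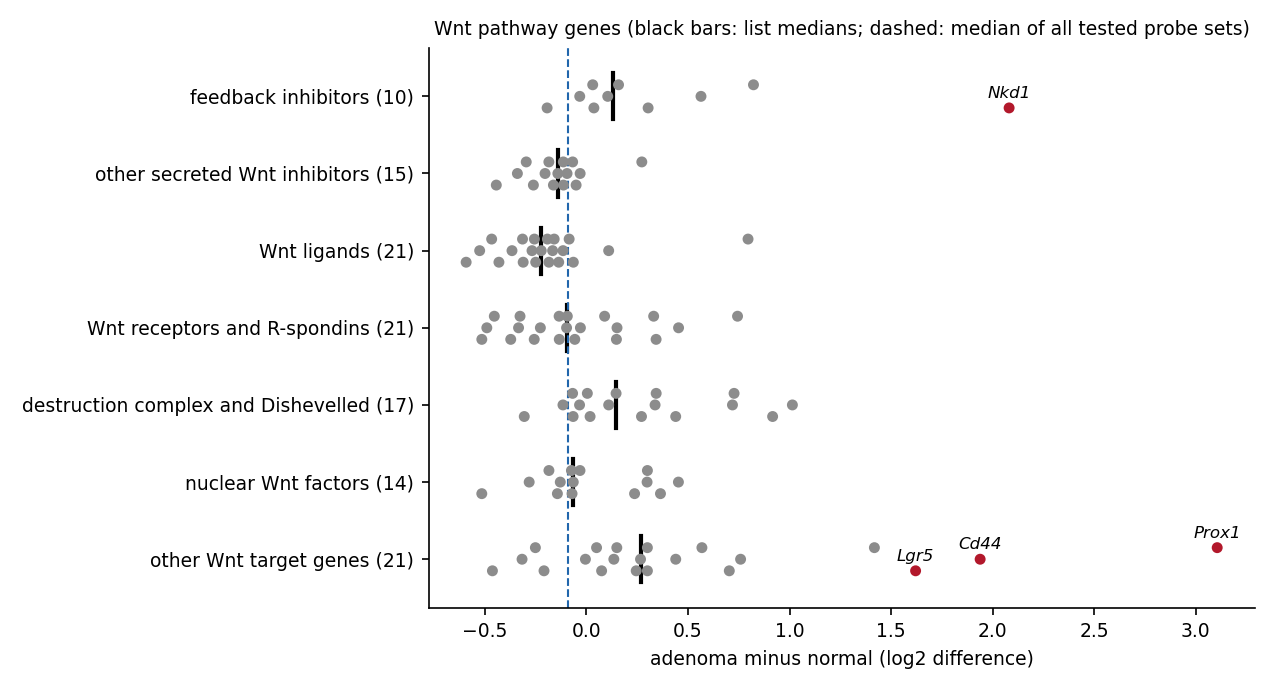
Difference between adenomas and normal epithelium (x axis, log2 scale) for every measured gene of 7 Wnt pathway lists (rows, number of genes in brackets). Each point is a gene, red marks an adjusted p under 0.05, black bars are list medians and the dashed line is the median of all tested probe sets (-0.091). Nkd1, Prox1, Cd44 and Lgr5 are the called genes.

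The 5 genes whose levels followed Nkd1 most closely over the 13 arrays were Dcn (Pearson r = 0.976), Ptn (0.968), Saa3 (0.966), Ly6d (0.965) and Wfdc17 (0.956). Dcn encodes decorin, a matrix proteoglycan of fibroblasts, Ptn the secreted growth factor pleiotrophin, Saa3 an acute-phase serum amyloid, Ly6d a surface protein and Wfdc17 a small secreted protein of the WAP family. Within the 10 normal arrays r was 0.135 for Dcn, -0.299 for Ptn and 0.154 for Wfdc17, but 0.612 for Saa3 and 0.665 for Ly6d. Without FP-high replicate 1 the 5 values ran from 0.955 to 0.986 over 12 arrays, but the genes then ranked 1, 7, 9, 11 and 18 in the order given, so that only Dcn stayed among the 5 most similar. The arrays share tissue and amplification, and no test was made. Dcn was at 7.62, 6.14 and 4.41 in adenomas, against 3.35 to 4.07 in the 10 normal arrays, and so was spread over the adenomas as Nkd1 was.

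**Figure D5:**
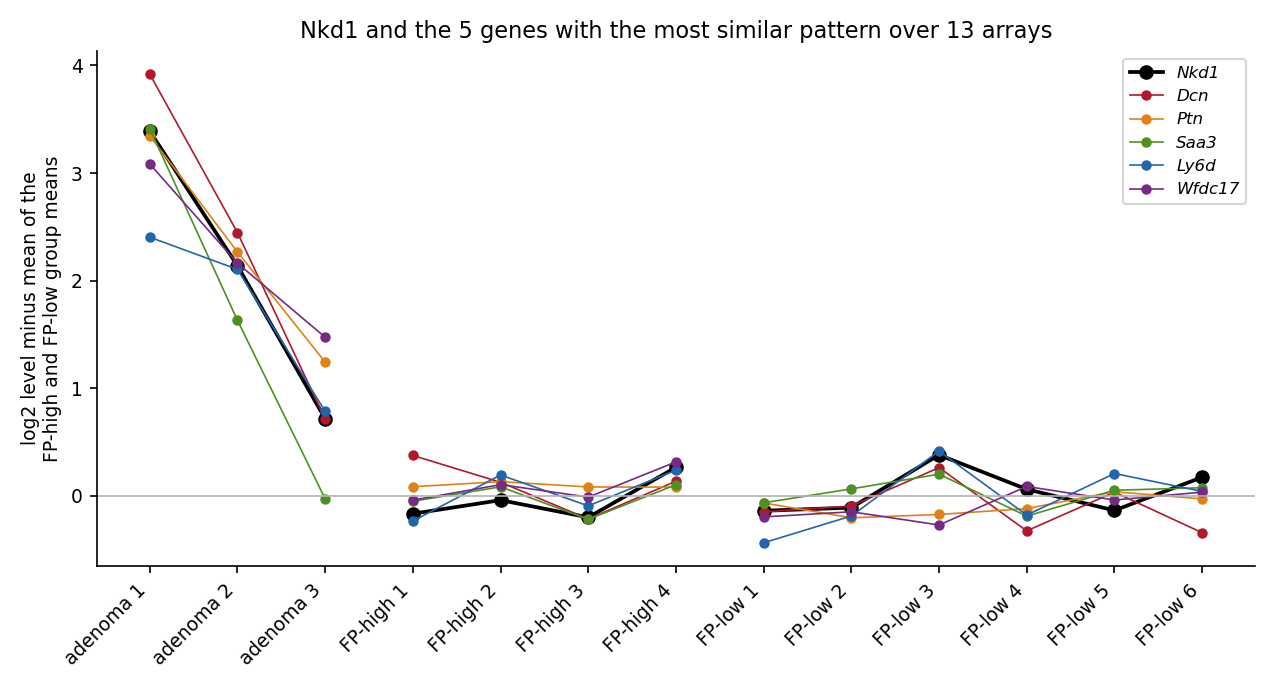
Log2 level of Nkd1 (black) and of the 5 genes most like it, each minus the mean of its FP-high and FP-low group means (y axis), on every array (x axis). Lines join arrays of a group only to guide the eye, since arrays have no order. Nkd1 and Dcn are highest in adenoma replicate 1 (3.39 and 3.92) and lowest among adenomas in replicate 3 (0.72 and 0.71).

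Fibroblast markers moved with the adenomas only in part. Of 15 measured, 6 had a higher and 9 a lower mean in adenomas, and 3 passed as higher in adenomas than in normal samples: Dcn by 2.36 ± 0.45 (limma adjusted p = 0.0277), Sparc by 1.30 ± 0.24 (0.0253) and Fn1 by 1.22 ± 0.22 (0.0187). All 3 also passed against FP-low samples but none against FP-high samples (limma adjusted p = 0.0716 for Dcn, 0.0762 for Sparc and 0.0668 for Fn1). The collagens on the list (Col1a1, Col1a2, Col3a1, Col6a1 and Col6a2) did not pass in any of these comparisons. Against normal samples the first 3 differed by -0.044, -0.29 and -0.098. The mean log2 level of the fibroblast list was 5.04, 4.73 and 4.51 in adenomas, against 4.42 to 4.82 in FP-high and 4.31 to 4.56 in FP-low samples. Of 12 myeloid markers, 1 passed, the leukocyte gene Ptprc at 0.79 ± 0.16 (limma adjusted p = 0.0393, and 0.203 against FP-high alone), and the list averaged 4.19 to 4.79 in adenomas, 4.36 to 4.61 in FP-high and 3.99 to 4.44 in FP-low samples. Smooth muscle, endothelial, T cell and nerve lists held 0 called genes. The 9 stem cell markers, a list that also holds Axin2, were 5 higher and 4 lower in adenomas. Lgr5 alone was called, while Olfm4, a marker of crypt stem cells, differed by -2.69 ± 0.84 (limma adjusted p = 0.227) and Rgmb by -0.65 ± 0.22 (adjusted p = 0.298); these 2 were chosen after their values were seen. Of 8 measured Paneth cell markers 0 passed. In bulk samples fewer cells of a type and less RNA per cell cannot be told apart, and the part of these cells in the Nkd1 and Wif1 levels was not tested.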

How the data were processed

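RNA levels were measured on 13 Affymetrix Mouse Gene 1.0 ST arrays. The authors deposited log2 expression for 35556 probe sets, made with Affymetrix software (Command Console per the design text, Expression Console and Transcriptome Analysis Console per the submitters' processing notes). For versions, background correction, normalization and summarisation the entry is: not given in the sources used here. That the scale is log2 follows from the values' range. No detection calls were used, so whether a low level lies above background is unknown. The platform annotation gave at least 1 gene symbol to 23410 probe sets, which were tested, exactly 1 to 21789 and several to 1621; 12146 had none. A gene with several probe sets was read on the brightest.

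Groups were taken from the sample titles. Differences were fitted with limma 3.58.1 in R 4.3.3 (lmFit and eBayes, two-sided) on all 13 arrays, with a common residual spread across groups, no filter and no covariate. The fit was also run on simulated data with the same spread in every group. That run cannot check the fit for a gene whose spread differs between groups, as that of Nkd1 did. Deviations from the group means had r of 0.233, 0.102 and 0.220 (all above 0.1) between same-numbered adenoma and FP-high arrays. The labels state no pairing. The other same-numbered pairs were mixed in sign (adenoma and FP-low r = -0.116, 0.061 and -0.062, FP-high and FP-low r = -0.361, 0.178, -0.286 and 0.090). No values for arrays with different numbers are given beside these, so they do not show a pairing by number. By Xist and Eif2s3y the block did not pair adenoma and normal arrays of the same animal. The named genes are all 10 inhibitors, called genes of the pathway lists or the 2 with the smallest p where none was called, and the 5 most similar to a called inhibitor. Members and lists were chosen with earlier results of these data known.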

Additional observations from a re-analysis of the deposited data

How the results depend on the processing

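Leaving out each array in turn gave 0 to 1 called genes in each of the 3 comparisons with adenomas and 0 in FP-high against FP-low. Nkd1 then ranged from 1.43 to 2.76 against normal epithelium, from 1.39 to 2.73 against FP-low and from 1.46 to 2.80 against FP-high samples. Against normal epithelium 1 gene, Nkd1, was called with quantile normalization, median centring, a filter at a mean level of 4 (9 genes left, without Znrf3), array weights, all 35556 probe sets or an intensity trend, and 0 with the replicate block (Nkd1 2.13, adjusted p = 0.169). Against FP-low the count was 0 with the replicate block (adjusted p = 0.327), with only these 2 groups in the fit (0.0595) or with all probe sets (0.057). Against FP-high it was 0 with the replicate block (0.209), with the replicate block in adenoma and FP-high replicates 1 to 3 alone (2.22, adjusted p = 0.519), with only these 2 groups (0.355), with quantile normalization (0.0543) or with all probe sets (0.0667). The cause of these losses was not tested. The probe sets called overall moved too: 1153 with array weights and 67 with the replicate block, against 213 as reported for adenoma against normal. For adenoma against FP-low they were 868 with array weights, 37 with the block and 343 with only the groups compared, against 129. For adenoma against FP-high they were 594, 51 and 46 in the same order, against 179, and 0 with the block in the 6 arrays alone. For FP-high against FP-low they were 4 with quantile normalization and 3 with array weights, against 0. Leaving out 1 array gave 92 to 488 for adenoma against normal (without adenoma replicate 2 and without FP-high replicate 1), 78 to 370 for adenoma against FP-low, 72 to 281 for adenoma against FP-high and 0 to 136 for FP-high against FP-low (136 without FP-high replicate 3).

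Genes near 0 changed sign, none of them called. Against normal epithelium Notum was -0.19 with quantile normalization and -0.027 with the replicate block, and Apcdd1 -0.097 with array weights. Against FP-high, array weights gave Axin2 -0.18, Notum 0.20 and Apcdd1 -0.13, and they gave Apcdd1 0.071 for FP-high against FP-low. Leaving out 1 array gave, against normal epithelium, Axin2 -0.24 to 0.13, Notum -0.064 to 0.18, Znrf3 -0.16 to 0.28 and Apcdd1 -0.077 to 0.095. Against FP-low it gave Znrf3 -0.34 to 0.094. Against FP-high it gave Axin2 -0.24 to 0.51, Notum -0.27 to 0.19, Dkk3 -0.051 to 0.21 and Apcdd1 -0.11 to 0.24. For FP-high against FP-low it gave Notum -0.023 to 0.44, Wif1 -0.13 to 0.079, Rnf43 -0.24 to 0.031 and Apcdd1 -0.28 to 0.060. Each gene had 1 probe set, so averaging probe sets gave no separate value.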
